A study of Mus musculus with 4 samples.

Results

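The genes of B cell receptor and PI3K signalling were examined in germinal centre (GC) and naive B cells of the mouse. A list of 44 genes was used, and each probe set that the platform annotation assigns to a single gene of that list counted as a member, so that 112 probe sets of 43 genes were read out of 45101 on the array. Lyn was not analysed here. The list holds 33 genes that carry the signal forward, called activators here, 8 inhibitors, and 3 genes with a dual or other role. Every probe set is reported separately, because the probe sets of a gene can lie at different distances from the 3' end of its transcript.

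All mice were C57BL6/J wild type. The sort gate for GC B cells was B220+PNA+Fas+, and the gate for naive B cells was B220+PNA-Fas-, so a pan-B-cell marker was shared and the lectin PNA and the death receptor Fas separated them. Peripheral lymph nodes (pLN) came from mice immunised with TNP-KLH, a hapten coupled to a carrier protein, in incomplete Freund's adjuvant. Peyer's patches (PP), where the gut wall holds B cell follicles, came from mice that had received no treatment. Each of the 4 samples was RNA pooled from 3 to 5 mice and put on 1 array, so precision is limited by the number of arrays, and the spread between mice is not measured.

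The B cell receptor is an antibody molecule bound to the signalling pair CD79A and CD79B. Antigen binding lets Src-family kinases and SYK phosphorylate this pair, and the adaptor BLNK then brings together BTK, PLCG2 and VAV proteins, which start calcium release, RAS and protein kinase C signalling. PI3K makes the membrane lipid PIP3 that recruits BTK and AKT, while inhibitory receptors such as CD22 recruit the phosphatases SHP-1 (Ptpn6) and SHIP1 (Inpp5d), which shut the signal down. GC B cells are known to transmit receptor signals less readily than naive cells.

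In GC cells, 7 of 11 inhibitor probe sets were lower than in naive cells and none was called higher, while activators were split, with 25 of 61 tested probe sets higher and 13 lower. With either one of the GC arrays left out, 2 inhibitor probe sets were lower. Under quantile normalization and under cyclic loess 1 was called higher, with 7 and 5 lower, and 1 was called higher with either one of the naive arrays left out. Of all tested probe sets on the array, 36.2% were called higher and 19.6% lower. In the PI3K and AKT group 7 of 9 were called higher and none lower. Signals are array intensities after scaling, and a log2 fold is the GC minus naive difference of log2(signal + 21.6), where 21.6 is the median signal of a list of genes of other tissues. The 90th percentile of that list was taken as the detection level of an array. It was 143 for GC and 106 for naive cells of pLN, and 200.2 for GC and 363 for naive cells of PP. Of the 7 higher PI3K and AKT probe sets, 1 (Akt1) was above the level on both naive arrays, 3 on naive pLN only and 3 on no naive array. Gcsam, a GC-associated signalling adaptor, was above that level on both GC arrays and below it on both naive arrays.

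A probe set was tested if both GC arrays or both naive arrays lay above the level. The test was limma with tissue as a block and Benjamini-Hochberg adjustment over 17273 probe sets, and a call needed an adjusted p under 0.05. Of the 112 member probe sets, 78 (41 genes) were tested and 34 were not, 20 of them below the level on all 4 arrays. Calls were made for 27 as higher in GC cells (34.6%) and for 22 as lower (28.2%), and 29 had no call. Beside the 36.2% and 19.6% of all tested probe sets, the members' share of higher calls was close to the background and the share of lower calls was above it. The median log2 fold of the tested members was 0.14, against 0.39 for all. With 1 residual degree of freedom the error of a probe set is borrowed from all probe sets of like brightness. Where 1 GC array was left out the member calls came to 8 higher and 6 lower (without GC pLN) or 10 higher and 5 lower (without GC PP). Since the RNA came from bulk samples, fewer cells of a type and less RNA per cell cannot be told apart.

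The arrays themselves differed in a way that moves with cell type. On the control probe sets placed along the transcripts of Gapdh and Actb, the 3' over 5' signal ratio was between 1.48 and 1.82 on the GC arrays, 12.2 and 18.7 on naive pLN, and 67.2 and 96.4 on naive PP. Along these control transcripts the log2 fold ran from -0.86 to 2.87 in pLN and from -2.32 to 4.22 in PP, depending on where the probe set lay. Of the tested members, 7 lay below that span in both tissues (2 of Ptpn6 and 1 each of Syk, Cd22, Vav1, Itpr2 and Cd72), or 8.97% against 5.25% of all tested probe sets. The 3 above it in both, 2 of Gcsam and 1 of Bcl10, rest on naive PP signals below the level. With signals under the level set to it, 7 members lay below the span (4.54% of all) and 0 above it (0.0695% of all). This comparison was chosen after the values were seen, and the part of the 3' bias in each fold was not tested. The median signal of 9 spike-in control probe sets was 3217 and 4588 in pLN, GC before naive, and 3071 and 11565 in PP. All 9 were lower on the GC arrays, with log2 folds of -1.25 (CreX-3) to -0.37 (BioC-5) in pLN. In PP they ran from -2.68 (CreX-3) to -1.01 (BioC-5), and Cd22, Vav1 and Cd72 (-2.47, -2.51 and -2.58) lay within that range. Other lower calls lay within the spike-in range in both tissues, such as Cd79a (-0.92 and -1.89) and Siglecg (-1.23 and -1.08). The same held for Btk, Inpp5d by 1418110_a_at, Ptpn11, Nfatc2, Gsk3b by 1434439_at, and Itpr2 by 1427287_s_at and 1444418_at. The share of all lower calls within it was not counted. Another spike-in, r2-P1-cre-3, had -1.40 and -2.66, where Ptpn6 by 1460188_at had -1.30 and -2.78. Of the r2-Ec and r2-P1 spike-ins, r2-Ec-bioC-3 alone was higher (1.74 and 2.24), and the others were lower on the GC arrays of both tissues. The part of the spike-in difference in the member folds was not tested.

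The defining B cell genes Cd79a, Cd79b and Ms4a1 were bright on all 4 arrays. Pax5, another B cell gene, read 521 and 512 in pLN and 540 and 358 in PP by one probe set, with naive PP below the level, and its other probe set was below the level on all arrays. In addition, 7 of 8 probe sets of 5 GC markers were higher in GC cells. Of 22 T cell probe sets, 1 was above the level on GC pLN and 4 on naive pLN, with 4 on GC PP and 1 on naive PP. Their summed signals were 1341 and 1755 in pLN and 1956 and 1094 in PP, GC before naive. Cd3e, a defining T cell gene, read 95.3 and 95.8 in pLN and 244 and 74.1 in PP. Cd8a, whose brightest probe set was the single one of that list tested, read 127 and 548 in pLN and 273 and 388 in PP and was called lower in GC cells. Several members, such as Fyn, Vav1, Rasgrp1 and Ptpn22, are also expressed in T cells, and the part of other cells in their values was not tested.

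**Figure D1:**
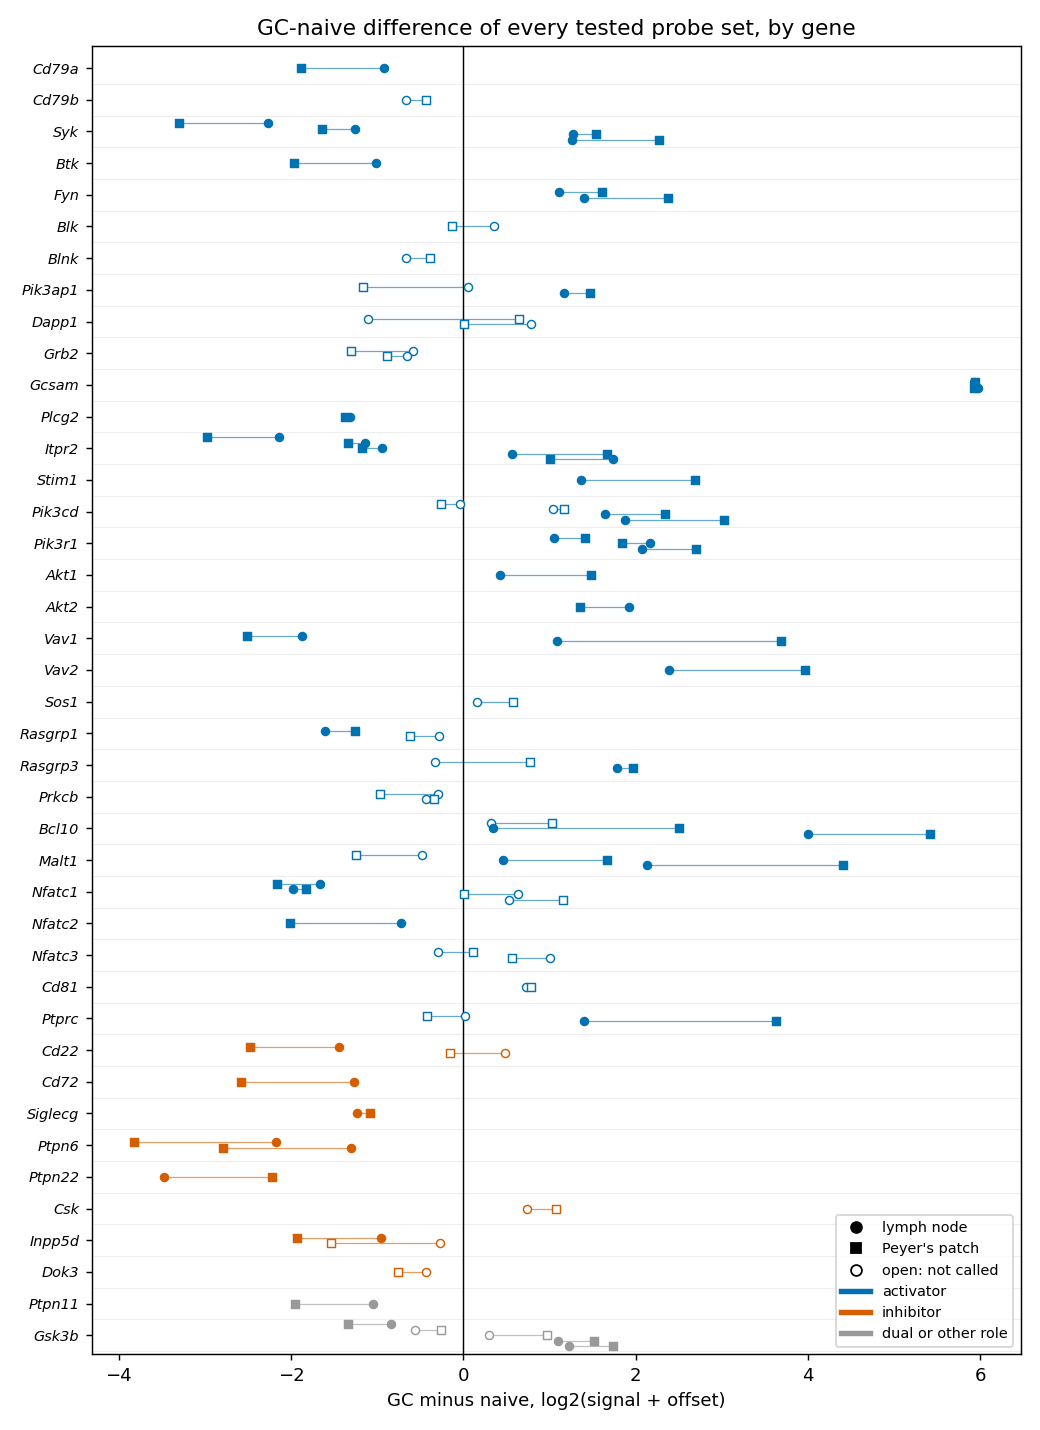
GC minus naive difference, in log2(signal + offset), of every tested probe set of the 41 genes (one line per probe set). Circles are lymph node and squares are Peyer's patch, filled symbols were called by limma, and colours mark activators, inhibitors and genes of dual or other role. The inhibitors Ptpn6, Ptpn22, Cd72 and Siglecg lie to the left of 0 in both tissues, Gcsam lies near 6 against naive signals below the level, and Syk, Vav1, Itpr2 and Gsk3b have called probe sets on both sides of 0.

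Upstream sequences are shown for 3 members whose levels the results turn on and whose listed start is that of the annotated gene: Cd79a as a subunit of the receptor itself, Gcsam as a gene above the detection level in GC cells alone, and Ptpn6 as an inhibitor lower by both of its probe sets. They are the 250 bases before the transcription start in the RefSeq table, build GRCm38.p6, at chr7:24897247-24897496 (plus strand), chr16:45610190-45610439 (plus strand) and chr6:124738710-124738959 (minus strand), written 5' to 3'. Capitals mark matches, on either strand, to the E-box CAGGTG and to the ETS-type motif GAGGAA.

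Cd79a: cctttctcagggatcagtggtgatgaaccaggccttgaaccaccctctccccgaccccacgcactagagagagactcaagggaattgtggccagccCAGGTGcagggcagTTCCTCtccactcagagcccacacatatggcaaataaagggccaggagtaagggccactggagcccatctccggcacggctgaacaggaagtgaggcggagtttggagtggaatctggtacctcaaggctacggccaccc

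Gcsam: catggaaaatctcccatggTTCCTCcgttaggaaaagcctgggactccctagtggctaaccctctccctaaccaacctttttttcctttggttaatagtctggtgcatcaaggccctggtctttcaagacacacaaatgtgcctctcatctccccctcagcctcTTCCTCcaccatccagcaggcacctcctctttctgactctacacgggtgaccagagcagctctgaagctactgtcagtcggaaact

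Ptpn6: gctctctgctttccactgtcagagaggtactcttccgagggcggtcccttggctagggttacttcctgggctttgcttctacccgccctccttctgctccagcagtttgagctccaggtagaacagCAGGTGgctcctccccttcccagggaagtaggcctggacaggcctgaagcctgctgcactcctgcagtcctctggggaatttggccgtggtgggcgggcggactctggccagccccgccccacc

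Of the 39 member genes with a promoter in that table, 11 held CAGGTG in this window, against 17.1% of 27025 promoters, and 15 held GAGGAA, against 23.1%. The octamer ATGCAAAT was found in 3 (Blnk, Orai1 and Prkcb) against 1.61% of all, and the FOXO-type motif GTAAACA in 3 (Akt1, Nfatc2 and Nfatc3) against 3.09%. Such matches describe letters in a window and are not binding sites.

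The signalling subunits of the receptor were both bright in all samples. Cd79a read 8077 on GC pLN and 15281 on naive pLN, and 6813 on GC PP and 25286 on naive PP. It was lower in GC cells in both tissues, by a log2 fold of -1.40 ± 0.52 (± SE from the intensity trend, limma adjusted p = 0.0145). The call was lost under quantile normalization (-0.45, limma adjusted p = 0.124) and cyclic loess (-0.32, limma adjusted p = 0.452). Cd79b read 10426 and 16579 in pLN and 10219 and 13813 in PP, in the order GC and naive. Its log2 fold of -0.55 ± 0.52 was not called (limma adjusted p = 0.371), and its sign turned under quantile normalization (0.61, adjusted p = 0.0424) and cyclic loess (0.55). Each gene had a single probe set.

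Among the activating kinases, Syk, which docks on the phosphorylated receptor, gave opposite answers by probe set. The brightest, 1418262_at, read 3809 in GC and 18373 in naive cells of pLN, and 3982 and 39305 in PP, a log2 fold of -2.78 ± 0.50 (limma adjusted p = 2.82e-07). A second bright one, 1418261_at, read 4923 and 11808, and 4171 and 13084 (-1.45 ± 0.48). Both were lower in GC cells in each tissue, whereas the dim probe sets of the same gene were higher. The probe set 1425797_a_at read 355 and 136 in pLN and 349 and 55.1 in PP (log2 fold 1.77 ± 0.49), and 1457239_at read 568 and 221, and 742 and 241 (1.41 ± 0.45). With signals under the level set to it, and no offset, these folds were 0.66 and 1.20, and in PP alone 1425797_a_at had -0.06.

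Fyn, a Src-family kinase, was higher in GC cells by both of its probe sets. The brighter read 2546 in GC and 953 in naive cells of pLN, and 2218 and 409 in PP, all above the level (log2 fold 1.89 ± 0.42, limma adjusted p = 3.5e-05), and the other had a log2 fold of 1.36 ± 0.43. The T cell list, given above, had a lower sum in GC than in naive cells of pLN and a higher one in PP. Btk, the kinase that activates PLCG2, was lower (3305 and 6685 in pLN, 2541 and 9983 in PP, log2 fold -1.49 ± 0.45). Blk, another Src-family kinase, read 5135 and 4016 in pLN and 4106 and 4499 in PP, and was not called (0.11 ± 0.45, limma adjusted p = 0.848).

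Gcsam was above the detection level on the GC arrays alone. Its probe set 1442582_at read 2841 on GC pLN and 3405 on GC PP, against 23.8 on naive pLN and 34.5 on naive PP. The other, 1420544_at, read 2245 and 1901 against 15.7 and 9.62. The naive signals were all below the detection level, so only bounds are given. Taking the level in place of the naive signals, Gcsam was at least 15.9-fold higher by the first and at least 10.6-fold higher by the second (limma adjusted p = 5.77e-36 and 4.9e-33).

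Among the other adaptors, 1 of 7 tested probe sets was called. Blnk, the scaffold downstream of SYK, read 6570 in GC and 10391 in naive cells of pLN, and 6291 and 8232 in PP, and was not called (-0.52 ± 0.48, limma adjusted p = 0.358). Grb2, which links receptors to RAS activation, had log2 folds of -0.94 ± 0.49 and -0.77 ± 0.45, and neither passed the test. Pik3ap1, the adaptor BCAP that brings PI3K to the membrane, was higher by 1429831_at (2070 and 909 in pLN, 2160 and 764 in PP, log2 fold 1.32 ± 0.42), while its dimmer probe set differed by -0.56 ± 0.45 and was not called. Dapp1, an adaptor that binds PI3K lipids, had no probe set called (0.40 and -0.22).

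In the calcium branch, Plcg2, the phospholipase that makes the calcium trigger IP3, was lower in GC cells. Its GC and naive signals were 4794 and 11992 in pLN and 4335 and 11276 in PP, with near-equal log2 differences of -1.32 and -1.37 (-1.35 ± 0.48, limma adjusted p = 0.011). Itpr2, an IP3 receptor of the endoplasmic reticulum, had 3 probe sets lower and 2 higher. The lowest, 1424834_s_at, read 629 and 2831 in pLN and 657 and 5309 in PP (-2.55 ± 0.42). Its 1427287_s_at read 1694 and 3749, and 1964 and 5014 (-1.24 ± 0.43), and 1444418_at read 111 and 233, and 375 and 874 (-1.06 ± 0.46). All 3 had lower signals on the GC array of each tissue. Its highest, 1421678_at, read 164 against 33.9 and 264 against 120, with both naive signals below the level, and came to at least 1.06-fold higher as a mean over both tissues. With the naive signals at the level its log2 difference was 0.63 in pLN and -0.46 in PP. The other higher one, 1424833_at, read 346 and 226, and 399 and 111 (1.12 ± 0.47, or 0.38 with signals under the level set to it). Stim1, the calcium sensor that opens store-operated channels, was higher by 1448320_at (508 against 184 in pLN, 330 against 32.9 in PP, 2.03 ± 0.48, or 0.66 with naive PP at the level, where PP alone had -0.14). Orai1, the pore of that channel, was not tested because neither of its probe sets passed the filter, and its brighter one read 208 and 292 in pLN and 161 and 56.1 in PP.

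In the PI3K and AKT group the GC signal was above the naive one in both tissues for 8 of 9 tested probe sets. Over the whole array 8959 of 17273 tested probe sets were so. With signals under the level set to it, the PP difference fell below 0 for Akt2 (-0.35) and Pik3r1 by 1425515_at (-0.52). It also did for Pik3cd by 1422991_at (-0.70) and 1446770_at (-0.22). The rest of the 8 stayed between 0.07 and 1.51 in PP. Pik3r1, the regulatory subunit p85, was higher by all 3 tested probe sets. Its brightest, 1438682_at, read 1523 in GC and 323 in naive cells of pLN, and 861 and 224 in PP (log2 differences of 2.16 and 1.85, SE of the mean 0.44, limma adjusted p = 2.46e-05), and the others had log2 folds of 2.39 ± 0.50 and 1.23 ± 0.47. The naive PP signal was below the level for each of these, and with it at the level the folds were 1.74, 0.88 and 0.71.

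Pik3cd, the catalytic subunit p110 delta, had no call at its brightest probe set. That one, 1453281_at, read 2028 and 2087 in pLN and 2442 and 2925 in PP and was not called (-0.15 ± 0.43, limma adjusted p = 0.783). Another 2, which are dim, were called higher but lay below the level on both naive arrays, so that 1422992_s_at (293 against 64.0 in pLN, 382 against 27.8 in PP) came to at least 1.71-fold. Akt1, the kinase activated by PI3K lipids, read 2344 and 1740 in pLN and 2123 and 743 in PP, all above the level, with a log2 fold of 0.96 ± 0.42 (limma adjusted p = 0.042). Akt2 was at least 1.70-fold higher by 1424480_s_at, its single tested probe set, as a mean over both tissues. With its naive signals at the level the log2 difference was 1.88 in pLN and -0.35 in PP, so no rise in PP was measured.

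**Figure D2:**
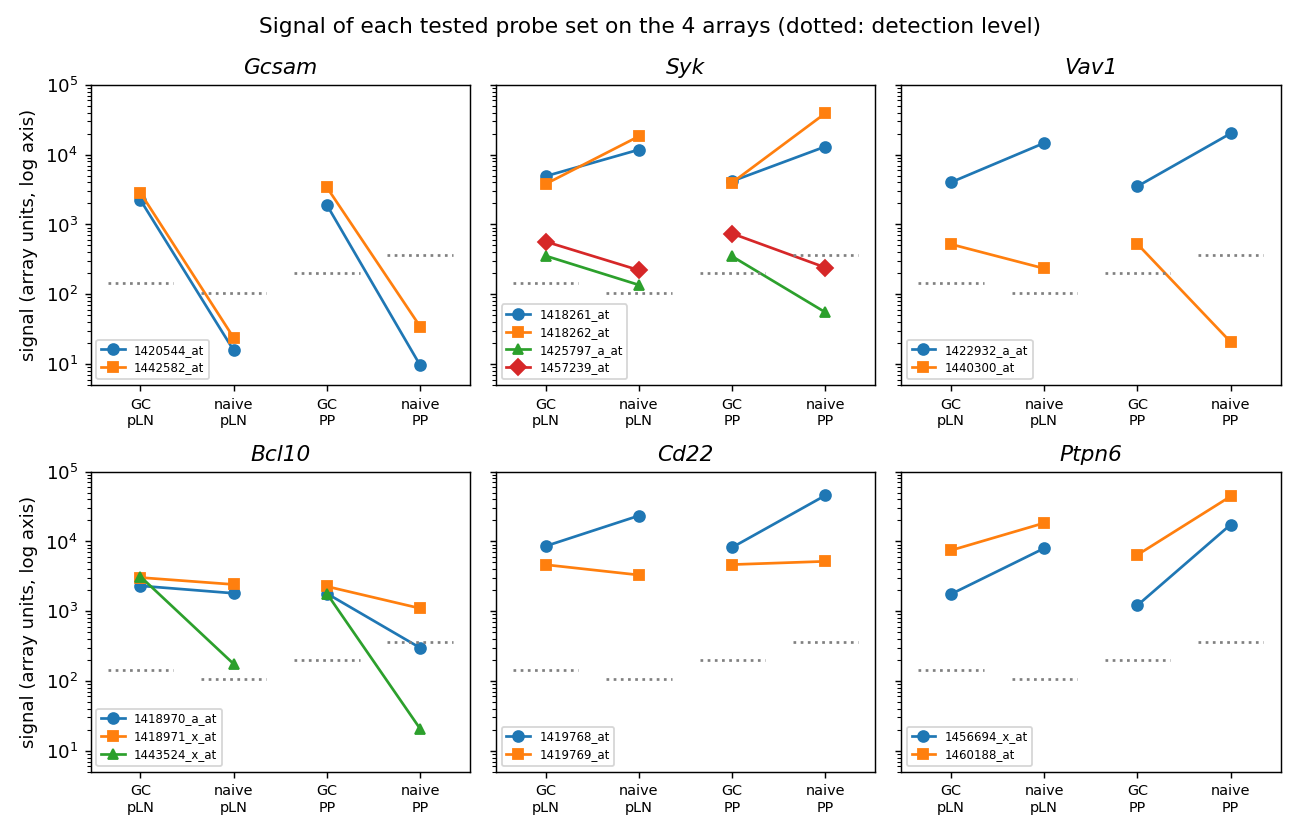
Signal of each tested probe set on the 4 arrays for Gcsam, Syk, Vav1, Bcl10, Cd22 and Ptpn6, on a log axis. Lines join the GC and naive arrays of a tissue, and grey dotted bars are the detection levels. Gcsam lies far above the level in GC cells and below it in naive cells, both Ptpn6 probe sets rise from GC to naive cells, and probe sets of Syk and Vav1 run in opposite directions.

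Vav proteins, which activate RAC and calcium signalling, differed by family member. Vav2 was higher by its single tested probe set, with 4107 in GC and 769 in naive cells of pLN and 4632 and 275 in PP (3.18 ± 0.42, limma adjusted p = 1.11e-12, or 3.05 with naive PP at the level). Vav1 was lower by its bright probe set 1422932_a_at, with 4019 and 14710 in pLN and 3521 and 20175 in PP (-2.19 ± 0.49). It was higher by the dim 1440300_at, with 521 and 234 in pLN and 525 and 20.7 in PP (2.39 ± 0.48, or 0.84 with naive PP at the level). Vav3 passed the level on naive pLN alone, where 1448600_s_at read 700, against 108, 75.3 and 202 on GC pLN, GC PP and naive PP, and was not tested.

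Of the RAS activators, Rasgrp1 and Rasgrp3 moved in opposite directions by the probe sets that were called. Rasgrp1 read 4256 in GC and 13018 in naive cells of pLN and 4142 and 9929 in PP (1434295_at, -1.43 ± 0.47, limma adjusted p = 0.0062). Rasgrp3 read 5311 and 1532, and 5179 and 1309 (1438030_at, 1.87 ± 0.43, limma adjusted p = 5.97e-05), with all 4 signals above the level. A second probe set of each was not called (-0.45 and 0.23). Sos1, another RAS activator, was not called (0.37 ± 0.42).

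Protein kinase C beta acts upstream of BCL10 and MALT1, which lead to NF-kB. Prkcb was not called by either tested probe set (-0.39 and -0.63). Bcl10 was higher by 2 of 3 tested probe sets, most by 1443524_x_at, with 3138 in GC and 176 in naive cells of pLN and 1791 and 20.7 in PP (4.71 ± 0.45, limma adjusted p = 1.19e-23, or 3.23 with naive PP at the level). Its brightest on the naive arrays, 1418971_x_at, read 3040 and 2420 in pLN and 2266 and 1101 in PP and was not called (0.68 ± 0.42). The remaining one, 1418970_a_at, was called although its tissues differed, with 2311 and 1810 in pLN (log2 difference 0.35) and 1794 and 299 in PP (2.50). Malt1 showed the same spread, from 1456126_at, with 1707 and 372 in pLN and 1709 and 59.6 in PP (3.27 ± 0.44, or 2.22 with naive PP at the level), through 1445068_at (1.07 ± 0.42), to 1456429_at, with 5188 and 7221, and 4552 and 10857 (-0.86 ± 0.47, not called).

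The NFAT factors, which calcium brings to the nucleus, had 3 of 7 tested probe sets lower and none higher. Nfatc1 was lower by 1428479_at, with 2060 in GC and 8141 in naive cells of pLN and 1616 and 5768 in PP (-1.90 ± 0.44), and by 1447085_s_at (-1.91 ± 0.43). Another, 1417621_at, read 2865 and 1832, and 2038 and 2019, and was not called (0.33 ± 0.42). Nfatc2 was lower (-1.37 ± 0.43) and Nfatc3 was not called.

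Cd81, a tetraspanin of the B cell surface, read 4820 and 2909 in pLN and 3269 and 1888 in PP, and missed the threshold (0.75 ± 0.43, limma adjusted p = 0.126). Ptprc encodes CD45, whose B220 form was used to sort both cell types, and which activates Src-family kinases. Its 1422124_a_at read 6997 and 2625 in pLN and 7188 and 562 in PP (2.52 ± 0.43), but 1440165_at read 3356 against 3317 and 2871 against 3835 and was not called (-0.20 ± 0.44).

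The inhibitors on the member list moved mostly one way. Of the 8 genes, 6 had a probe set called lower and none called higher, and 2 (Csk and Dok3) had none called. Among the receptors that carry inhibitory tyrosine motifs, Cd22, which binds sialic acids, was lower by 1419768_at, with 8578 in GC and 23409 in naive cells of pLN and 8219 and 45733 in PP (-1.96 ± 0.55, limma adjusted p = 0.0011). Its other probe set, 1419769_at, read 4637 and 3308, and 4663 and 5186, and was not called (0.17 ± 0.45). Under cyclic loess 1419768_at was not called either (-0.69, limma adjusted p = 0.0648). Cd72 read 7652 and 18420, and 6498 and 38854 (-1.92 ± 0.53). Siglecg, which also binds sialic acids, read 6400 and 15075, and 6440 and 13662 (-1.16 ± 0.50).

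Ptpn6, the phosphatase SHP-1 that these receptors recruit, was lower by both probe sets. The first, 1456694_x_at, read 1758 in GC and 7985 in naive cells of pLN and 1214 and 17424 in PP (-2.99 ± 0.45, limma adjusted p = 3.03e-10), and the second, 1460188_at, read 7454 and 18387, and 6419 and 44329 (-2.04 ± 0.53). Ptpn22, a phosphatase that acts on Src-family kinases and SYK, read 578 and 6643 in pLN and 954 and 4541 in PP (-2.85 ± 0.42, limma adjusted p = 2.74e-10). Its difference was larger in pLN (-3.47) than in PP (-2.23). Both GC signals lay below both naive signals for each of these probe sets, and the share of all probe sets that separate in this way was not counted.

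Inpp5d, the lipid phosphatase SHIP1 that removes PIP3, was lower by 1418110_a_at, with 4670 and 9085 in pLN and 4916 and 18770 in PP (-1.44 ± 0.48, limma adjusted p = 0.0069). Its dimmer probe set, with 436 and 532, and 528 and 1571, was not called (-0.90 ± 0.43, limma adjusted p = 0.0636). Under cyclic loess 1418110_a_at was not called (-0.61, limma adjusted p = 0.166) and the dimmer one was called lower (-1.32, limma adjusted p = 0.00383). Csk, the kinase that holds Src-family kinases inactive, was the exception in sign, with 3298 and 1969 in pLN and 2632 and 1233 in PP (0.91 ± 0.42), and just missed the threshold (limma adjusted p = 0.0565). Dok3, an inhibitory adaptor, was not called (-0.60 ± 0.45).

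Of the genes with a dual or other role, Ptpn11, the phosphatase SHP-2, was lower (2800 and 5790 in pLN, 2371 and 9206 in PP, -1.50 ± 0.45). Gsk3b, a kinase that AKT inhibits, had 2 probe sets called higher, 1 lower and 2 not called. The higher 1437001_at read 551 in GC and 223 in naive cells of pLN and 683 and 190 in PP (1.48 ± 0.46), and the lower 1434439_at read 218 and 407, and 225 and 601 (-1.09 ± 0.46). The other higher one, 1439931_at, read 492 and 217, and 592 and 192 (1.31 ± 0.46). Its brightest, 1454958_at, read 2566 and 2085, and 2440 and 1231, and was not called (0.64 ± 0.42), nor was 1451020_at, with 428 and 642, and 548 and 659 (-0.41 ± 0.44).

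Set side by side, the median log2 fold was -1.44 over the 11 inhibitor probe sets and 0.40 over the 61 activator probe sets, beside 0.39 over all tested. The inhibitor median was the lower in each of 15 alternative settings, from the scaling to the array left out, and in 11 of the 15 no inhibitor was called higher. The inhibitor and activator medians were -0.81 and 0.35 under quantile normalization, and -0.69 and 0.47 under cyclic loess. Most inhibitor probe sets were bright. In the brightest eighth of all tested probe sets, which held 8 inhibitor and 18 activator probe sets, 6 inhibitors and 8 activators were lower and none of either was higher. The medians there were -1.68 and -0.90, beside -0.82 over all 2160 probe sets of that eighth, of which 40.7% were called lower and 7.04% higher. The difference between the classes was not tested.

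Higher and lower calls rested on different ground. Of the 22 lower calls, 21 were above the level on both GC arrays, the dimmer side, and the other was above it on 1. Of the 27 higher calls, 6 were above the level on both naive arrays, 15 on 1 and 6 on none. The 6 were those of Fyn (1448765_at), Pik3ap1 (1429831_at), Akt1 (1416657_at), Rasgrp3 (1438030_at), Malt1 (1445068_at) and Ptprc (1422124_a_at). With signals under the level set to it, 16 member probe sets were called higher and 21 lower, where 23.9% and 17.6% of all tested were. The split by detection was not counted over all called probe sets. Of all probe sets on the array, 23.8% were above the level on naive PP. The shares were 40.4% on GC pLN, 39.6% on naive pLN and 37.8% on GC PP.

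Among the 22 member genes with several tested probe sets, 10 had all folds of 1 sign and 12 had both signs. Over all genes with several tested probe sets, 1706 of 3708 (46.0%) had both signs. Genes with probe sets called in both directions numbered 4 (Syk, Vav1, Itpr2 and Gsk3b), against 436 of the 3708 (11.8%). In 14 of the 22 genes the probe set that was brightest on the naive arrays had the lowest fold, as in 73.3% of all such genes. Fyn, Gcsam, Pik3r1, Rasgrp3 and Bcl10 kept a positive sign, and Ptpn6, Inpp5d, Grb2, Rasgrp1 and Prkcb a negative one, in every tested probe set. With 1 probe set a gene, the brightest, 10 member genes were called higher and 16 lower of 41, where 26.8% and 25.4% of all genes were. With the mean of a gene's probe sets 10 were higher and 8 lower, where 32.1% and 17.7% of all were.

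**Figure D3:**
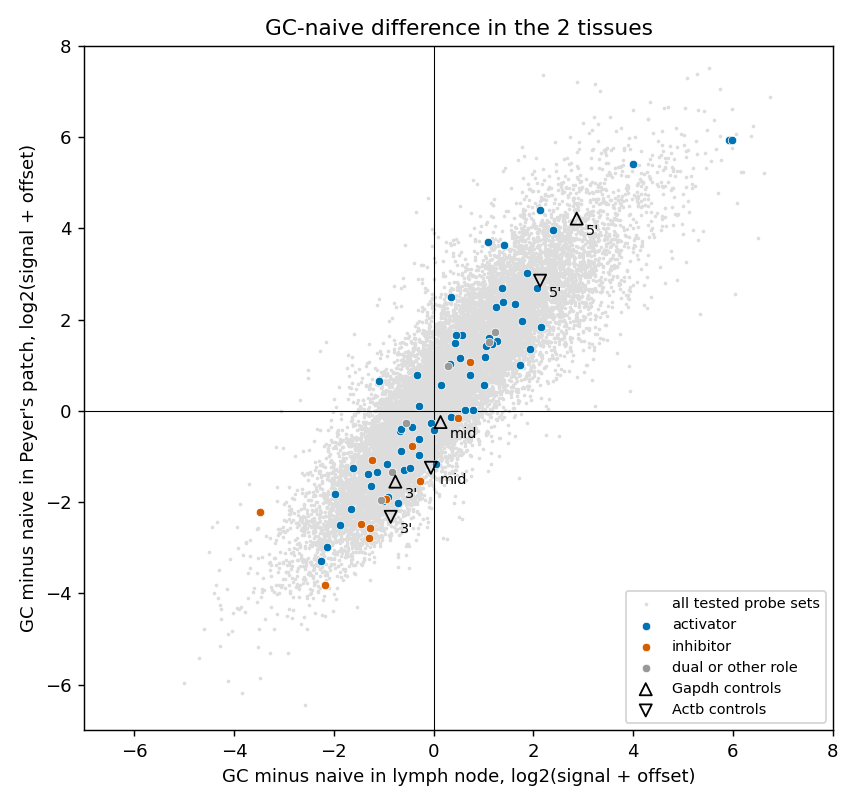
GC minus naive difference in lymph node (horizontal) and in Peyer's patch (vertical), in log2(signal + offset), for all 17273 tested probe sets (grey), the members (coloured by class) and the control probe sets at the 5' end, middle and 3' end of Gapdh and Actb (open triangles). Members spread along the same diagonal as the controls. Ptpn6 lies beyond the 3' controls at the lower left, while the position of Gcsam at the upper right rests on naive signals below the detection level.

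The GC-naive difference was then read in each tissue separately, without a test. In pLN, 27 of 92 measured member probe sets had a GC signal 2-fold or more above the naive one and 21 had one below it, where 28.5% and 19.3% of all measured probe sets were. In PP, 31 of 78 were higher and 26 lower, where 41.4% and 21.2% of all were. Of the 92 member probe sets above the level somewhere, 24 were 2-fold higher in both tissues and 17 lower in both (23.3% and 11.8% of all), and none was 2-fold in opposite directions (0.15% of all). Of the 78 tested members, 71 had the same sign in both tissues, as did 14935 of all 17273 tested probe sets. Of the 71 members, 56 had the larger size in PP, the tissue whose naive array had the highest 3' over 5' ratio. With signals under the level set to it, 62 members had the same sign and 41 of these the larger size in PP. The larger sizes in PP were not counted over all probe sets. Ptprc by 1422124_a_at, above the level on all 4 arrays, had 1.41 in pLN and 3.63 in PP.

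PP came from untreated and pLN from immunised mice. The effects of tissue and of immunisation therefore cannot be told apart, and with 1 array each the comparison within a cell type has no test. Over both cell types, limma with cell type as a block, added after seeing the data, called 1 of 78 members higher in PP and 0 lower, where 0.208% and 0.313% of all tested probe sets were. At an unadjusted p under 0.05 the members came to 2 higher and 8 lower, and the share of all tested probe sets at that threshold was not counted. The called one was Itpr2 by 1444418_at (log2 difference 1.69, limma adjusted p = 0.0483), whose GC pLN signal was below the level. In GC cells, whose arrays had like 3' over 5' ratios, the members were nearly level, as were the probe sets of the whole array. Of 83 measured member probe sets, 81 differed by less than 2-fold, 1 was higher in PP and 1 lower (2.95% and 1.41% of all measured probe sets). Itpr2 by 1444418_at read 375 in PP and 111 in pLN, the latter below the level, and Pik3r1 by 1425515_at read 253 and 536. The SD of the log2 difference was 0.38 over the members and 0.52 over all. Next in size were Ptpn22, higher in PP (954 and 578, log2 difference 0.70), Itpr2 by 1421678_at (264 and 164, 0.62) and Syk by 1457239_at (742 and 568, 0.37). On the lower side were Pik3r1 by 1438682_at (861 and 1523, -0.81) and Bcl10 by 1443524_x_at (1791 and 3138, -0.80). Akt1 by 1425711_a_at read 167 in PP, below the level, and 315 in pLN (-0.65 with the former at the level).

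In naive cells the members differed more between tissues, with 8 of 82 probe sets 2-fold higher in PP and 21 lower, where 5.98% and 17.5% of all were. Activators made up 63 of the 82 measured probe sets and inhibitors 11. All 21 lower probe sets belonged to activators, from 15 genes, but 14 of them were below the level on naive PP, and 9 were lower with such signals set to the level. The 4 with the lowest fitted difference were all of that kind: Vav1 (1440300_at, 234 in pLN and 20.7 in PP), Bcl10 (1418970_a_at, 1810 and 299, and 1443524_x_at, 176 and 20.7) and Malt1 (1456126_at, 372 and 59.6). Their sizes were not measured. Of those above the level on both naive arrays, the largest were Ptprc by 1422124_a_at (2625 and 562, log2 difference -2.18) and Dapp1 by 1421937_at (2944 and 745, -1.95). The others were Malt1 by 1445068_at (-1.41), Rasgrp3 by 1438031_at (-1.39), Akt1 by 1416657_at (-1.20), Fyn by 1448765_at (-1.18) and Bcl10 by 1418971_x_at (-1.12). Of the 8 higher ones, 5 belonged to inhibitors: both probe sets of Ptpn6 (1.27 and 1.12) and of Inpp5d (1.52 and 1.05), and Cd72 (1.08). Inpp5d read 1571 in PP and 532 in pLN by 1424195_a_at, and 18770 and 9085 by 1418110_a_at. The largest was Itpr2 by 1444418_at, with 874 in PP and 233 in pLN (1.81). Ptpn6 by 1460188_at read 44329 in PP and 18387 in pLN. The 3' over 5' ratio of the Gapdh control moved the same way, from 18.7 to 96.4, as did the summed signal of 9 gut epithelial probe sets, from 1251 to 6409. The median signal of the 9 spike-in control probe sets also rose, from 4588 on naive pLN to 11565 on naive PP, though r2-Ec-bioC-3 fell from 1264 to 835. The part of each in these differences was not tested.

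**Figure D4:**
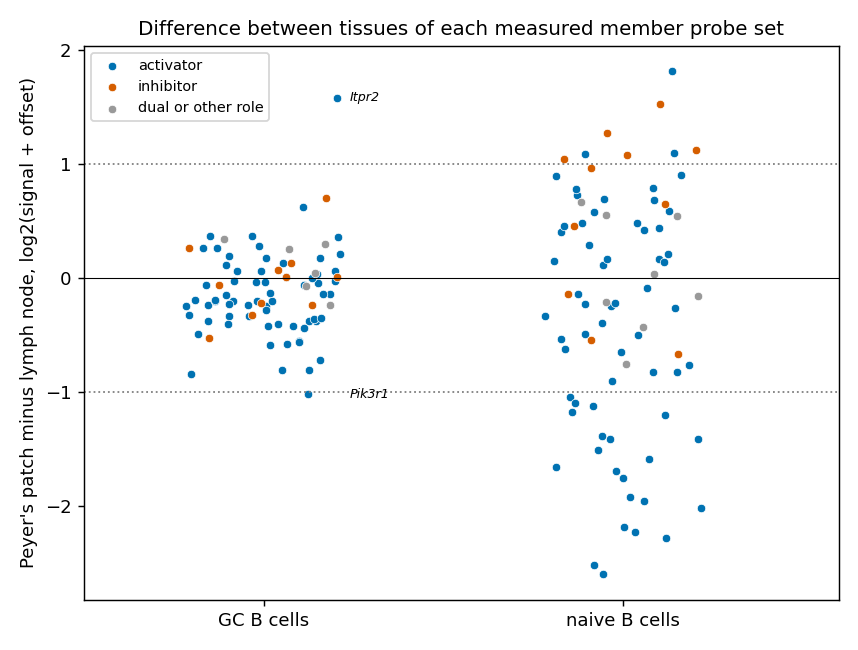
Peyer's patch minus lymph node difference, in log2(signal + offset), of each member probe set above the detection level on either array, in GC cells (83 probe sets) and naive cells (82), with points spread sideways for legibility and dotted lines at 2-fold. In GC cells all but Itpr2 and Pik3r1 lie within the lines, while in naive cells 21 activator probe sets lie below and 5 inhibitor probe sets above.

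Other genes of the pathway that are not on the member list were read from a list of 74 genes, of which 63 were analysed here. Of 105 tested probe sets, 36 were called higher, 21 lower and 48 not called, with a median log2 fold of 0.47. The 4 lowest were above the level on every array. Pirb, an inhibitory receptor, read 671 in GC and 3177 in naive cells of pLN, and 223 and 4275 in PP (-3.17 ± 0.42). Foxo1, a transcription factor that AKT inactivates, read 1036 and 2665, and 1004 and 7525 (1416981_at, -2.11 ± 0.42), although its 1416982_at was called higher (1.11 ± 0.42). Map2k2, a kinase of the MAP kinase cascade, read 344 and 1238, and 418 and 2318 (1460636_at, -2.10 ± 0.43). Ikbkb, a kinase that activates NF-kB, read 4623 and 14067, and 4916 and 27875 (1426207_at, -2.05 ± 0.50). The 4 genes highest by the fitted fold were all below the level on naive PP, so their sizes and order were not measured. Ighm, the IgM heavy chain, read 9183 and 1994 in pLN and 7707 and 25.1 in PP (1427756_x_at, a log2 fold of 4.78, or 3.31 with naive PP at the level). Ppp3r1, a subunit of the phosphatase calcineurin, read 1720 and 295, and 1365 and 14.8 (1433591_at, 3.85, or 2.23 with naive PP at the level). Cbl, a ubiquitin ligase, read 1832 and 58.1 in pLN and 1501 and 150.2 in PP by 1455886_at, or at least 8.48-fold higher. Pik3r6, a PI3K regulatory subunit, read 151 and 21.3, and 832 and 0.57, or at least 1.81-fold higher. Other Ighm probe sets were called lower, the lowest at -1.93, and immunoglobulin probe sets can take up signal from related genes.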

How the data were processed

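Gene expression was measured on 4 single-colour Affymetrix arrays, with 1 pooled sample on each. The submitters' processing notes name GCOS. Its version, algorithm and scaling: not given in the sources used here. Values as deposited are linear intensities with an array median of 1. Because their 2% trimmed means differed by over 10%, all arrays were brought to a common trimmed mean of 500. Scaling assumes that most signals are equal between cell types. Of 45101 probe sets, 34958 had 1 gene symbol, 932 several and 9211 none listed. All 112 member probe sets had an Entrez identifier in the RefSeq table, which changed 0 symbols. The background list held 83 probe sets of 47 genes.

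R 4.3.3 and limma 3.58.1 were used, and the model held tissue as a block and an intensity trend. The estimated prior degrees of freedom were infinite, so the error of a probe set came from the trend alone. The fit was tested on simulated data with 200 changed probe sets. Comparisons of single arrays were described by 2-fold counts. P-values rest on the disagreement between the 2 tissues, pooled over probe sets of like intensity, and not on a spread between mice.

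The members, lists and tests were chosen with earlier results of these data known. The naming rule took the 8 highest and 8 lowest called members, for genes with probe sets called both ways, for Cd79a, Cd79b, Syk, Cd22, Ptpn6, Inpp5d and Gcsam, for the 4 largest PP-pLN differences either way, and for the 4 highest and lowest other pathway genes; other members were named by role. Alternatives covered the scaling, offset, filter, block, trend, fold, probe sets and each array left out, and those on the background list, the PP-pLN test and the control span were added after seeing the data. A planned search of protein motifs was not run. Of the table's columns, 0 were left unused.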

Additional observations from a re-analysis of the deposited data

Results flagged for a closer look

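In 7 tested member probe sets the GC array lay above the naive array in one tissue and below it in the other. With 1 array per group none of these differences was tested, and none of the 7 was called over both tissues by limma. Dapp1 by 1421937_at had a log2 difference of -1.10 in pLN and 0.65 in PP. Rasgrp3 by 1438031_at had -0.33 and 0.78, and Nfatc3 by 1419976_s_at had -0.29 and 0.11. The other 4 were higher in pLN and lower in PP: Pik3ap1 by 1421285_at (0.051 and -1.17), Cd22 by 1419769_at (0.48 and -0.15), Blk (0.35 and -0.13) and Ptprc by 1440165_at (0.017 and -0.42).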

How the results depend on the processing

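Of 349 comparisons of 33 fully described member probe sets (17 genes) with 11 other settings, 311 kept both direction and side of the threshold, 31 lost the call, 5 gained one and 2 reversed. Those 2 were Cd79b, at 0.61 under quantile normalization and 0.55 under cyclic loess. With an array left out, 89 of 132 kept both, 37 lost the call, 5 gained one, and Cd22 by 1419769_at reversed, within a range of -0.16 to 0.49. Leaving out an array gave 8 to 35 member calls higher and 5 to 31 lower, 2474 to 7910 and 803 to 4594 over all probe sets, and a member median of 0.033 to 0.22. These fits hold no tissue block. No member call turned direction under any setting.

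The member median was 0.30 under cyclic loess, 7e-04 in the deposited scaling, -0.074 with no filter, -0.60 with all 4 arrays above the level and -0.060 with dim signals at the level. Member calls higher were 6 with all 4 arrays above the level, against 1600 over all probe sets, a filter that removes probe sets dim in 1 cell type. With dim signals at the level they were 16, against 4121 over all probe sets. Under quantile normalization 20 members were higher and 22 lower (47.6% of calls higher, against 55.1%), and the median of all folds was 0.12 in place of 0.39. Counting genes with any call, 17 were higher and 17 lower, against 10 higher with the brightest probe set, and 10 higher and 8 lower with the mean.

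Probe sets 2-fold higher in GC cells of both tissues numbered 13 under quantile normalization, 14 under cyclic loess, 11 with dim signals at the level, 4 with all 4 arrays above it and 10 at 3-fold. Those lower in both numbered 10, 9 and 7 under quantile normalization, cyclic loess and 3-fold. In naive cells, those higher in PP were 3 under quantile normalization, 2 in the deposited scaling and 1 at 3-fold, and those lower were 9 with dim signals at the level, 7 with all 4 arrays above it and 11 at 3-fold. In GC cells, those lower in PP were 4 in the deposited scaling, and 0 with an offset of 4 times, all 4 arrays above the level or 3-fold. Those higher were 0 with the last 2 settings. Where no construction of a setting shows the cause, the cause was not tested.

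The GC-naive fit pairs the cell types by tissue. No paired analysis by replicate number was possible because each group holds 1 array. The planned motif search in proteins was not run. Signal over background limits 34 of the 112 member probe sets, which were not tested, and folds against naive PP, where 54 were above the level.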
